A study of Mus musculus with 2 samples.

Results

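The Ifi200 genes, a family of PYHIN proteins encoded side by side on mouse chromosome 1, were examined in leukocytes of a skin-implanted melanoma. Members were picked out by gene symbol: Ifi203, Ifi204, Ifi205, Ifi206, Ifi207, Ifi209, Ifi211, Ifi213, Mndal and Aim2. All 10 were present among the 32432 genes counted. Both groups were male mice aged 8 to 12 weeks that carried R26CreERT2, a Cre recombinase expressed from the ubiquitous Rosa26 locus and switched on by tamoxifen. The Trex1 iKO group was Trex1 fl/fl, with both alleles of Trex1, a DNA-degrading exonuclease, flanked by loxP sites. The Trex1 control group was Trex1 fl/wt, so it also carried 1 conditional allele and Cre, and was not wild type. Every mouse received 1000 B16-F10 melanoma cells in the skin of each leg. Tamoxifen, 1 mg, was injected on 3 days starting on day 5, and tumours were taken on day 14. CD45-positive live cells were sorted and sequenced at transcript 3' ends on droplets. Each genotype gave 4 hashtagged samples run together as 1 pool, and the effects of genotype and of pool cannot be told apart here. The labels do not say whether a hashtagged sample is 1 mouse, so p-values measure the spread between these samples.

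PYHIN proteins pair a pyrin domain, which binds other pyrin domains, with 1 or more HIN domains, which bind DNA. Aim2 detects double-stranded DNA in the cytosol and assembles an inflammasome through the adaptor Pycard and the protease Casp1. Ifi204 is often treated as the mouse counterpart of human IFI16, a DNA sensor that acts upstream of Sting1. Many family members are transcribed in response to type I interferon, which binds its receptor and drives transcription factors to interferon-stimulated response elements. Trex1 removes cytosolic DNA that would otherwise reach such sensors.

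The letters upstream of the genes are shown because most members moved together between genotypes. RefSeq promoter windows (build GRCm38.p6, 250 bases before to 50 after the annotated start) were found for 9 of the 10 members, all but Ifi204. The Ifi213 window is chr1:173599223-173599522 on the minus strand. The Ifi206 window is chr1:173491269-173491568 on the minus strand. The Mndal window is chr1:173880138-173880437 on the minus strand. The Ifi211 window is chr1:173912997-173913296 on the minus strand. The Ifi209 window is chr1:173630609-173630908 on the plus strand. The Aim2 window is chr1:173420354-173420653 on the plus strand. Capitals mark the motif GAAANNGAAA, a core of interferon-stimulated response elements, searched on both strands.
Ifi213: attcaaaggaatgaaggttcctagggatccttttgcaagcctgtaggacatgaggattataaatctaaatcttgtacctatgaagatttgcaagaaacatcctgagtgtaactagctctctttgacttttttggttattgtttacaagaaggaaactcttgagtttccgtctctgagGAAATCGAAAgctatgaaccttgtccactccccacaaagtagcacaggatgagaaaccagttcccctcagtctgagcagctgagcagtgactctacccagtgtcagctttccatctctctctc
Ifi206: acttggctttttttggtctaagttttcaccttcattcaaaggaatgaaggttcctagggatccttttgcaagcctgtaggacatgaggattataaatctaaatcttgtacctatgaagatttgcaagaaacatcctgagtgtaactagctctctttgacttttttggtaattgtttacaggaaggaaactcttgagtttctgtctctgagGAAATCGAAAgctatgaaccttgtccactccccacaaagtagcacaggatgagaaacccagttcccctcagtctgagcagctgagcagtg
Mndal: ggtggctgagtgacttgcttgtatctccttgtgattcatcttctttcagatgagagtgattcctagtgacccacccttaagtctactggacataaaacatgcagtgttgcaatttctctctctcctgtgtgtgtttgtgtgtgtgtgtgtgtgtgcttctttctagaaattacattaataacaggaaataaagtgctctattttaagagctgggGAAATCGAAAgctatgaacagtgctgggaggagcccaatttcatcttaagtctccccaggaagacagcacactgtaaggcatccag
Ifi211: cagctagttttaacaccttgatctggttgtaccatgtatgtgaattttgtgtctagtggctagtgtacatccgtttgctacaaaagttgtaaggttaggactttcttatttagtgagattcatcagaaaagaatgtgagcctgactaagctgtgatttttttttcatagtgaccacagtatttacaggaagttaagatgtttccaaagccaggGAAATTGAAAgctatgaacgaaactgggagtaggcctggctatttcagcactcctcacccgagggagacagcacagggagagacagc
Ifi209: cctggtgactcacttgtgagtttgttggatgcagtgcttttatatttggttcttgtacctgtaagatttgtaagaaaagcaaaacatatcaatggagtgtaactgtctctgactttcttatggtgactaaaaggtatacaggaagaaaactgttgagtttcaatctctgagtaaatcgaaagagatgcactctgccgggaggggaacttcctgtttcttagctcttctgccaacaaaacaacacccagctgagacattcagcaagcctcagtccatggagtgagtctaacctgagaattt
Aim2: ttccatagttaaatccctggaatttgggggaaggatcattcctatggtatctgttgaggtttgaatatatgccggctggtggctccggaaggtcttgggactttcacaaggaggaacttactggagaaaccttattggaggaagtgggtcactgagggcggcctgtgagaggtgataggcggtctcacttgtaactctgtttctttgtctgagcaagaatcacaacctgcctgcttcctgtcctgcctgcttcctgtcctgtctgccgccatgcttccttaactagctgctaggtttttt
The motif lay in a window of 7 of the 9 members, beside 3.99% of all 27025 genes in the table and 3.44% of its 32851 windows. A match is a description and not a shown binding site. Its first base was at -40 relative to the start in Ifi206, -41 in Ifi207, -37 in Ifi211, -36 in Mndal and -73 in Ifi213. In Ifi203 it was at -35 of the second of 2 annotated starts. Ifi205 held it at -134 on the same strand and again, on the opposite strand, after the start. Ifi209 and Aim2 had no match to all 8 fixed bases, and their best stretch matched 7. The windows of Ifi206 and Ifi213 shared an unbroken run of 135 bases, and those of Ifi203 and Mndal one of 139.

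Reads of near-identical genes can be lost or misplaced, so member counts are uncertain in part. In GENCODE M21 coding transcripts, up to 59.4% of the 90-base runs in the last 500 bases of Ifi205 also occurred in Ifi211 or Mndal, and the same share held for Ifi211. For Ifi209 the share was 58.6%, all of it with Ifi214. It was 25.3% for Ifi206, 19.0% for Ifi213 and 8.52% for Mndal. Ifi203, Ifi204, Ifi207 and Aim2 shared none.

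The 8 samples held 1362 to 6117 barcodes and 17111065 to 96457227 unique transcript counts (UMIs). Median UMIs per barcode were 12535.5 to 14221 in iKO and 5794 to 11490 in control samples. Of 23731 barcodes, 22490 passed a limit of at least 300 genes and at most 10% mitochondrial UMIs. No barcode was shared within a pool and 45 were shared between pools. Trex1 itself had 2 UMIs over all kept cells, both in control sample 2, too few to check the genotype labels. Cells were gated by marker panels that held no member, and UMIs were summed per sample and gate. Levels are UMIs per 1000000 of that sum (CPM) with the SD over 4 samples. A UMI marks a transcript whatever its length, but members that share 3' ends may lose counts, so levels and family shares are less comparable between members than between samples. In the myeloid gates, iKO samples 1 and 2 stood apart from iKO samples 3 and 4. Their member sums were also the higher ones in some lymphoid gates. For iKO samples 1 to 4 these sums were 1516, 1598, 1134 and 1009 CPM in regulatory T cells. They were 1763, 2553, 1319 and 1327 CPM in CD4 T cells, and 1772, 1855, 1512 and 1538 CPM in B cells. Counts of members called are therefore given with all samples and with iKO samples 3 and 4 alone.

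In control samples the members fell into different cell types, and their levels are a description. Ifi204 was highest in monocytes at 328 ± 26.2 CPM (SD, n = 4), followed by macrophages rich in complement C1q at 269 ± 77.5 and neutrophils at 128 ± 65.2. The first pair of these levels overlapped. Ifi207 was 271 ± 40.2 CPM in monocytes and 234 ± 46.9 in C1q macrophages, followed by conventional dendritic cells at 112 ± 21.9 and neutrophils at 84.0 ± 59.4. Ifi211 read 156 ± 34.3 CPM in monocytes, 135 ± 45.4 in C1q macrophages and 113 ± 21.7 in conventional dendritic cells, which lay within their spread. Ifi205 had its highest level in conventional dendritic cells, where control samples 1 to 4 read 555, 287, 423 and 379 CPM. Every other gate was lower for Ifi205, the next being mature dendritic cells at 76.4 ± 71.7 and monocytes at 70.6 ± 18.1 CPM. So Ifi205 and Ifi211, which share part of their 3' ends, differed in where they were high.

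Ifi203 and Mndal, a pair that shares promoter letters, were lymphoid-high in the control samples. Ifi203 was 353 ± 38.9 CPM in B cells, 278 ± 29.8 in CD4 T cells, 226 ± 34.3 in CD8 T cells, 212 ± 91.2 in regulatory T cells and 184 ± 51.3 in monocytes. Mndal was 328 ± 68.9 in B cells, 254 ± 31.9 in CD4 T cells, 244 ± 32.3 in CD8 T cells, 230.4 ± 71.4 in regulatory T cells and 163 ± 24.9 in monocytes. Both were lowest in neutrophils, at 29.1 ± 10.99 and 33.3 ± 6.76 CPM. Ifi209 was highest in B cells at 200.2 ± 71.1 and next in monocytes at 163 ± 33.5, within the spread. Ifi206 and Ifi213 were the low members: their highest control gate means were 56.2 ± 14.2 CPM in CD4 T cells and 52.2 ± 29.9 in B cells. Aim2 was highest in neutrophils at 97.0 ± 25.5 CPM, where it made up 23.1% of the family's UMIs. In monocytes its share was 2.33%.

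**Figure D1:**
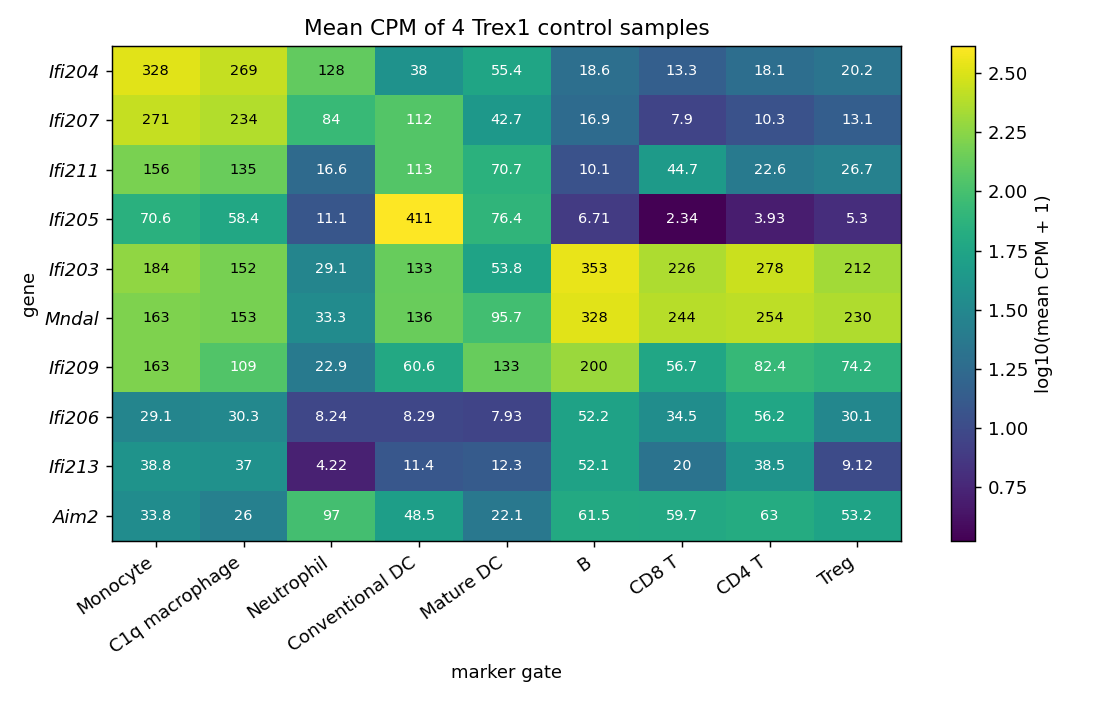
Mean CPM of each member (rows) in each marker gate (columns) over the 4 Trex1 control samples, coloured by log10(mean CPM + 1). Ifi205 peaks in conventional dendritic cells at 411 CPM, Ifi203 and Mndal in B cells at 353 and 328, and Aim2 in neutrophils at 97.0.

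In monocytes, 9 of the 10 members were higher in Trex1 iKO than in control samples, and Aim2 did not pass the test. The fold of the group means ran from 1.80 for Ifi207 to 6.24 for Ifi206. A gene was called when its Benjamini-Hochberg adjusted p from edgeR's quasi-likelihood test, over all genes tested in the gate, was under 0.05. Of 10126 genes tested in monocytes, 9.86% were called higher. The members' median log2 fold change was 1.62, against -0.0023 over all genes tested.

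Ifi204 read 1177, 1146, 631 and 590.3 CPM in iKO samples 1 to 4, and 357, 296, 339 and 322 CPM in control samples 1 to 4. The groups did not overlap, and iKO samples 1 and 2 were the high pair. Its log2 fold change was 1.41 ± 0.24 (SE, adjusted p = 0.0045). Ifi205 read 487, 438, 141 and 143 CPM in iKO and 97.5, 62.2, 63.6 and 59.0 CPM in control samples (log2 fold change 2.09 ± 0.44, adjusted p = 0.0107). The lower iKO pair was again samples 3 and 4, which still lay above every control sample. Ifi206 read 252, 266, 112 and 95.1 CPM in iKO against 35.2, 29.8, 35.3 and 15.9 CPM in control samples. Its log2 fold change was 2.65 ± 0.40 (adjusted p = 0.00263). Ifi213 read 314, 335, 147 and 121 CPM against 50.1, 35.5, 50.1 and 19.7 CPM (2.56 ± 0.41, adjusted p = 0.00326). These 2 genes, low in control monocytes, had the largest fold changes of the members there.

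Mndal and Ifi203 moved less than that pair. Mndal read 756, 717, 385 and 357 CPM in iKO and 188, 130.1, 174 and 158 CPM in control samples (log2 fold change 1.75 ± 0.27, adjusted p = 0.00276). Ifi203 read 744, 679.8, 406 and 359 CPM against 245, 124, 166 and 202 CPM (1.54 ± 0.28, adjusted p = 0.00605). For both, the groups were separate and iKO samples 1 and 2 were highest. Ifi209 rose by a log2 fold change of 1.70 ± 0.29 (533 ± 213 against 163 ± 33.5 CPM) and Ifi211 by 1.53 ± 0.29 (459 ± 184 against 156 ± 34.3 CPM). Ifi207, abundant in both genotypes, rose least at 0.83 ± 0.19 (adjusted p = 0.0147), from 271 ± 40.2 to 487 ± 122 CPM. Leaving out 1 sample at a time kept 8 or 9 members called, and Ifi207 was the call lost, without control sample 4 (adjusted p = 0.0507). Restricted to iKO samples 3 and 4, the monocyte count was 8, beside 281 of 10196 genes, again without Ifi207 (log2 fold change 0.41). In the same gate Apoe, Mrc1 and Trem2, macrophage genes, summed to 366 to 1006 CPM in iKO and 1665 to 2528 CPM in control samples. Their part in the members' change was not tested.

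**Figure D2:**
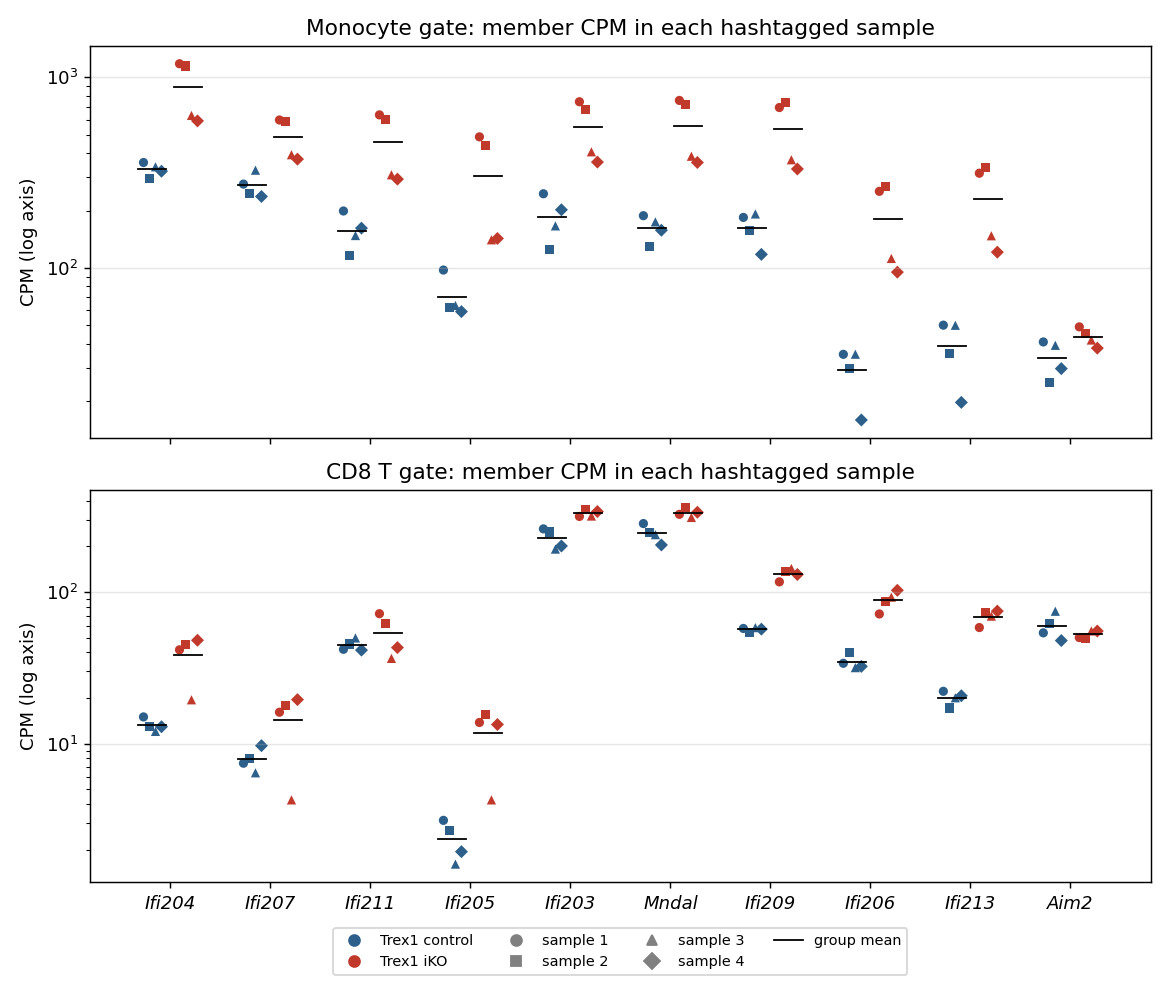
CPM (log axis) of each member in each hashtagged sample, in the monocyte gate (upper) and the CD8 T gate (lower); colour is genotype, marker shape is the sample number and bars are group means. In monocytes iKO samples 1 and 2 lie above iKO samples 3 and 4 for every member, and in CD8 T cells they do not for Ifi206, Ifi209 and Ifi213.

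Over the whole monocyte and macrophage gate, which holds the monocytes and the C1q macrophages, 9 members were again called higher, beside 6.7% of 11789 genes. The median log2 fold change was 1.39, from 0.37 for Aim2 to 2.17 for Ifi213. This count changed with single samples: it was 0 without iKO sample 2 or control sample 2 and 3 without iKO sample 1. It was 2 without control sample 4 and 5 without control sample 3. Genes called higher over all genes tested fell too, from 790 to 208 of 11430 without iKO sample 2. Without control sample 2 they were 202 of 12228. In the fits without 1 sample, the adjusted p of these 9 members was at most 0.096. Keeping iKO samples 3 and 4 alone gave 0 members, beside 105 of 11539 genes.

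In C1q macrophages no member was called by edgeR, where 1.78% of 10449 genes were called higher. All 10 log2 fold changes were above 0, with a median of 1.11, and 9 members had an unadjusted p under 0.05, beside 21.2% of all genes tested there. DESeq2 called 7, beside 4.09% of its genes. Leaving out iKO sample 3 gave 6 calls in edgeR, beside 418 of 10906 genes called higher. Keeping iKO samples 3 and 4 alone gave 0, beside 26 of 10161 genes. Ifi213 read 179, 195, 59.95 and 90.6 CPM in iKO and 44.5, 47.2, 43.9 and 12.3 CPM in control samples (log2 fold change 1.88 ± 0.48, adjusted p = 0.068). The groups did not overlap, but iKO sample 3 stood close to the control samples. Ifi204 read 739, 724, 317 and 449 CPM in iKO and 332, 239, 332 and 173 CPM in control samples, and here iKO sample 3 fell inside the control range. Whether monocytes and C1q macrophages differ in their response was not tested.

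Neutrophils gave 4 calls, for Ifi204, Ifi206, Ifi209 and Ifi213, among 9 members tested. Of all 5723 genes tested there, 2.22% were called higher. Ifi206 had the largest change of any member in any gate. It read 133, 69.5, 79.2 and 32.0 CPM in iKO samples 1 to 4 and 6.05, 11.3, 7.29 and 8.32 CPM in control samples (log2 fold change 3.36 ± 0.39, adjusted p = 0.000572). Every iKO sample lay well above every control sample. Ifi204 read 558, 658, 331 and 290.2 CPM against 67.9, 194, 175 and 76.9 CPM (2.07 ± 0.34, adjusted p = 0.00436). Ifi209 rose by 2.33 ± 0.30, from 22.9 ± 5.79 to 101 ± 46.5 CPM, and Ifi213 by 3.05 ± 0.53, from 4.22 ± 2.52 to 36.5 ± 27.2 CPM. None of the 4 calls was lost when any 1 sample was left out. When iKO samples 3 and 4 alone were kept, Ifi213 no longer passed (log2 fold change 1.98, adjusted p = 0.0913). The iKO neutrophil gates held 38 to 137 cells each.

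In conventional dendritic cells 3 members were called, Ifi204, Ifi211 and Ifi213, beside 0.585% of 7181 genes. Ifi213 read 46.2, 71.7, 29.1 and 32.1 CPM in iKO and 14.5, 15.7, 7.74 and 7.54 CPM in control samples (log2 fold change 2.03 ± 0.33, adjusted p = 0.0148). Ifi211 rose by 1.11 ± 0.21, from 113 ± 21.7 to 243 ± 77.5 CPM. Ifi204 rose by 1.75 ± 0.35, from 38.0 ± 4.82 to 126 ± 78.3 CPM. For these 3 the genotypes did not overlap, which picking called genes favours, and for every other member they overlapped. The share over all genes is not given, so the separation is not read as a result. Ifi205, which this cell type expressed most, did not pass: it read 688, 792, 564 and 403 CPM in iKO samples and 555, 287, 423 and 379 CPM in control samples, which overlapped (log2 fold change 0.57 ± 0.21, adjusted p = 0.206). The count fell to 1 without control sample 2, iKO sample 1 or iKO sample 2. Genes called higher there were 8 of 7299, 13 of 7462 and 27 of 7470. The member count was 0 without control sample 3 or 4, beside 10 of 7317 and 11 of 7329 genes. With iKO samples 3 and 4 alone it was 0, beside 12 of 8015 genes. Removing cells above 3 times their sample's median UMIs also gave 0, where 0 of 6349 genes were called higher.

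Mature dendritic cells gave no call by edgeR, where 0.173% of 6955 genes were called higher. There 7 members had an unadjusted p under 0.05, beside 13.6% of all genes, and DESeq2 called 2, beside 1.83% of the 3983 genes with an adjusted p. Without iKO sample 4 edgeR called 4, beside 79 of 7040 genes. With iKO samples 3 and 4 alone it called 0, beside 1 of 7349 genes. Ifi213 was nearest the threshold, with 57.8 ± 30.8 CPM in iKO and 12.3 ± 5.00 in control samples (log2 fold change 2.34 ± 0.43, adjusted p = 0.0518).

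In CD8 T cells 7 members were called higher, beside 2.18% of 9596 genes. The members' median log2 fold change was 1.11 and that of all genes -0.02. Ifi213 read 58.4, 73.1, 69.4 and 74.9 CPM in iKO samples 1 to 4 and 22.2, 17.2, 20.1 and 20.7 CPM in control samples (1.77 ± 0.13, adjusted p = 0.000161). Ifi209 read 117, 137, 143 and 131 CPM against 57.6, 53.9, 58.3 and 57.0 CPM (1.22 ± 0.09, adjusted p = 0.000164). Ifi206 read 71.7, 87.1, 92.5 and 103 CPM against 33.9, 40.2, 31.7 and 32.4 CPM (1.35 ± 0.13, adjusted p = 0.000508). The genotypes were far apart for these 3 genes, and iKO samples 1 and 2 were not above samples 3 and 4.

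Ifi203 and Mndal, the members most abundant in CD8 T cells, moved little. Ifi203 went from 226 ± 34.3 to 331 ± 17.9 CPM (0.55 ± 0.10, adjusted p = 0.0173) and Mndal from 244 ± 32.3 to 333 ± 20.5 CPM (0.45 ± 0.10, adjusted p = 0.0311). Mndal lost its call in 6 of the 8 fits that left out 1 sample, and Ifi203 in 3. Ifi211 read 72.0, 62.2, 36.5 and 43.1 CPM in iKO and 41.9, 45.5, 49.8 and 41.4 CPM in control samples, and the groups overlapped. Removing cells above 3 times their sample's median UMIs left 4 members called, beside 128 of 9122 genes. With iKO samples 3 and 4 alone 6 were called, beside 220 of 9925 genes.

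The remaining CD8 T calls, Ifi204 and Ifi205, were of genes that were scarce there. Ifi204 read 13.3 ± 1.25 CPM in control and 38.5 ± 13.0 in iKO CD8 T cells, and Ifi205 2.34 ± 0.69 and 11.7 ± 5.07. In CD8 T cells Ifi204 stood at 4.59% of its monocyte/macrophage level in control and 5.53% in iKO samples. For Ifi205 these shares were 3.22% and 4.58%, and for Ifi207 3.27% and 3.45%. Lyz2, a lysozyme gene of macrophages and monocytes, stood at 3.07% and 3.18%. The macrophage genes C1qa, C1qb, C1qc and Ms4a7 together stood at 5.84% and 3.99%. The 3 members were thus about as scarce in CD8 T cells, relative to myeloid cells, as these myeloid genes. Other panels differed between genotypes in the CD8 T gate. Ccr2, Plac8 and F10, taken as monocyte genes though T cells can also express Ccr2 and Plac8, summed to 943 to 1707 CPM in iKO and 441 to 888 in control samples. Apoe, Mrc1 and Trem2 summed to 29.7 to 51.1 and 101 to 228 CPM. Their part in the CD8 T values was not tested. Transcripts from myeloid cells in these droplets cannot be told apart from a low level in the T cells. By contrast Ifi209 stood at 41.2% and 34.7%, Ifi213 at 50.8% and 39.3%, and Ifi203, Mndal, Ifi206 and Aim2 above that.

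**Figure D3:**
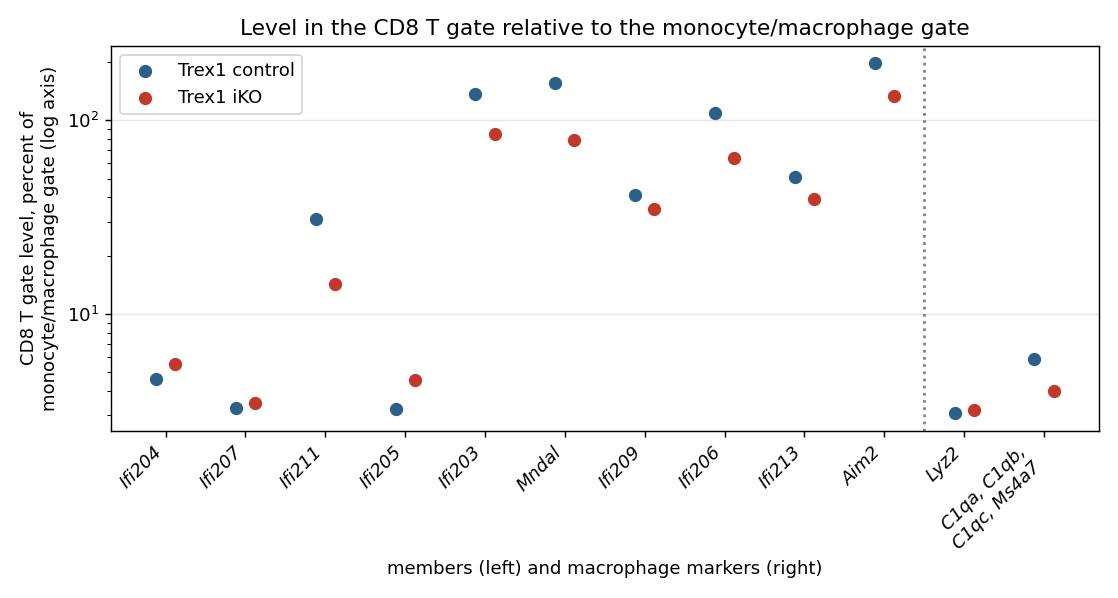
Mean CPM in the CD8 T gate as a percent of that in the monocyte/macrophage gate (log axis), for the 10 members and, right of the dotted line, for macrophage markers, by genotype. Ifi204, Ifi207 and Ifi205 lie between 3.22% and 5.53%, among the markers, and the other 7 members lie higher.

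CD4 T cells gave 6 calls among 8 members tested, beside 1.55% of 6332 genes. Ifi213 read 129, 178, 71.8 and 103 CPM in iKO and 54.9, 30.7, 27.9 and 40.7 CPM in control samples (1.66 ± 0.28, adjusted p = 0.00594). Ifi206 rose by 1.40 ± 0.25, Ifi209 by 1.30 ± 0.24, Mndal by 0.89 ± 0.18 and Ifi203 by 0.87 ± 0.19. Ifi204 rose by 2.39 ± 0.40, from 18.1 ± 13.4 to 107 ± 53.4 CPM, which was 6.26% and 15.3% of its monocyte/macrophage level. Lyz2, Cd68, Ctsb and Lgals3 together stood at 6.15% and 9.58% in the same cells, and their part in the Ifi204 value was not tested. The count with iKO samples 3 and 4 alone was 2, beside 36 of 7009 genes. Sample 2 was the highest iKO sample for each of the 6 called members.

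Regulatory T cells gave 3 calls, for Ifi206, Ifi209 and Ifi213, among 9 members tested and beside 1.13% of 7110 genes. Ifi213 read 92.6, 110.4, 46.0 and 31.9 CPM in iKO and 9.10, 13.1, 8.49 and 5.82 CPM in control samples (2.91 ± 0.43, adjusted p = 0.00677). It was the 1 call of the 3 that held without any 1 sample. The count was 1 without control sample 2 or 3 or iKO sample 1, 2 or 3, and 7 without control sample 1, whose Ifi206 level was 77.3 CPM against 12.4 to 17.0 CPM in the other control samples. With iKO samples 3 and 4 alone it was 0, where 2 of 7643 genes were called higher.

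In B cells 3 members passed, Ifi203, Ifi213 and Mndal, among 6 tested and beside 1.77% of 3166 genes. Mndal read 492, 539.8, 486 and 480.0 CPM in iKO and 257, 402, 369.9 and 284 CPM in control samples (0.59 ± 0.14, adjusted p = 0.0254). The groups did not overlap. Ifi203 rose by 0.60 ± 0.14, from 353 ± 38.9 to 531 ± 88.9 CPM, and Ifi213 by 1.41 ± 0.28, from 52.2 ± 29.9 to 116 ± 25.7 CPM. A single call remained when iKO sample 1, iKO sample 2, control sample 3 or control sample 4 was dropped. Keeping iKO samples 3 and 4 alone gave 0, beside 32 of 3652 genes.

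Across the 9 separate gates Ifi213 was called higher in 7, more than any other member, and its log2 fold change was at least 1.41 in each. Ifi204 was called in 5 of 8 gates tested, Ifi206 and Ifi209 in 5 of 9, Ifi203 and Mndal in 4 of 9, Ifi205 in 2 of 5, Ifi211 in 2 of 8 and Ifi207 in 1 of 7. No member was called lower in any gate. Genes called lower ran from 5 of 6955 in mature dendritic cells to 784 of 10126 in monocytes. With all kept cells summed, 7 members were called higher, beside 1.8% of 13534 genes. Ifi203 (adjusted p = 0.0602), Mndal (0.059) and Aim2 (0.935) did not pass. That count was 9 with the replicate number as a block, 9 with DESeq2 (beside 5.26% of genes) and 4 without control sample 2 or 3. It was 3 with iKO samples 3 and 4 alone, beside 71 of 13778 genes. In these summed profiles, more cells of a type and more RNA per cell cannot be told apart.

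**Figure D4:**
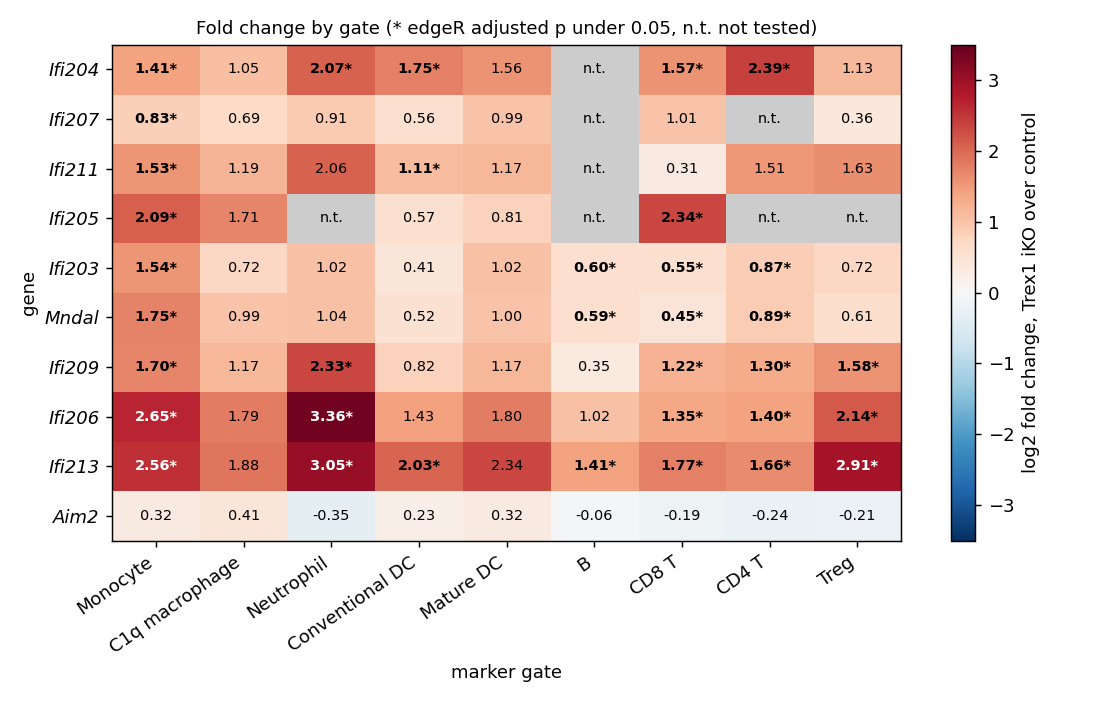
Log2 fold change of Trex1 iKO over control for each member (rows) in each gate (columns), with a star for an edgeR adjusted p under 0.05 and n.t. for genes too low to test. Ifi213 is starred in 7 gates and Aim2 in none, with values from -0.35 to 0.41.

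Whether the genotype effect differed between the monocyte/macrophage and CD8 T gates was tested directly over 12344 genes. No member was called in either direction, beside 0.081% of the genes, and 4 members had an unadjusted p under 0.05, beside 13% of the genes. Ifi211 came nearest, with an effect larger by 1.05 ± 0.21 on the log2 scale in the monocyte/macrophage gate (adjusted p = 0.0893). Without control sample 1 it passed (1.26, adjusted p = 0.0365), and it also passed with no filter on low counts (1.04, adjusted p = 0.0142).

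Aim2, the inflammasome sensor of the family, differed from the other members in that no gate gave a call. Its log2 fold change lay above 0 in 4 gates and below in 5, and no gate had an unadjusted p under 0.05. DESeq2 gave 0 calls in these gates as well. In monocytes Aim2 read 49.1, 45.3, 41.9 and 38.0 CPM in iKO and 40.9, 25.2, 39.3 and 29.7 CPM in control samples. The groups overlapped, and the log2 fold change was 0.32 with a 95% interval from -0.03 to 0.67. The upper bound lay below the estimates of the other 9 members in that gate, the lowest being 0.83 ± 0.19 for Ifi207. The difference between members was not tested. In C1q macrophages the bound was 0.83, above Ifi203 (0.72) and Ifi207 (0.69) and below the rest. In conventional dendritic cells it was 0.64, above Ifi203, Ifi205, Ifi207 and Mndal (0.41 to 0.57) and below the rest. In CD8 T cells Aim2 read 50.1, 49.8, 55.4 and 55.4 CPM in iKO and 53.8, 62.4, 74.7 and 47.9 CPM in control samples, with an interval from -0.49 to 0.11. In neutrophils, its highest control gate, it read 68.7, 91.1, 25.1 and 73.4 CPM in iKO against 59.9, 115, 101 and 112 CPM in control samples. That interval was wide, from -0.97 to 0.27. None of 174 alternative fits of Aim2 gave a call.

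**Figure D5:**
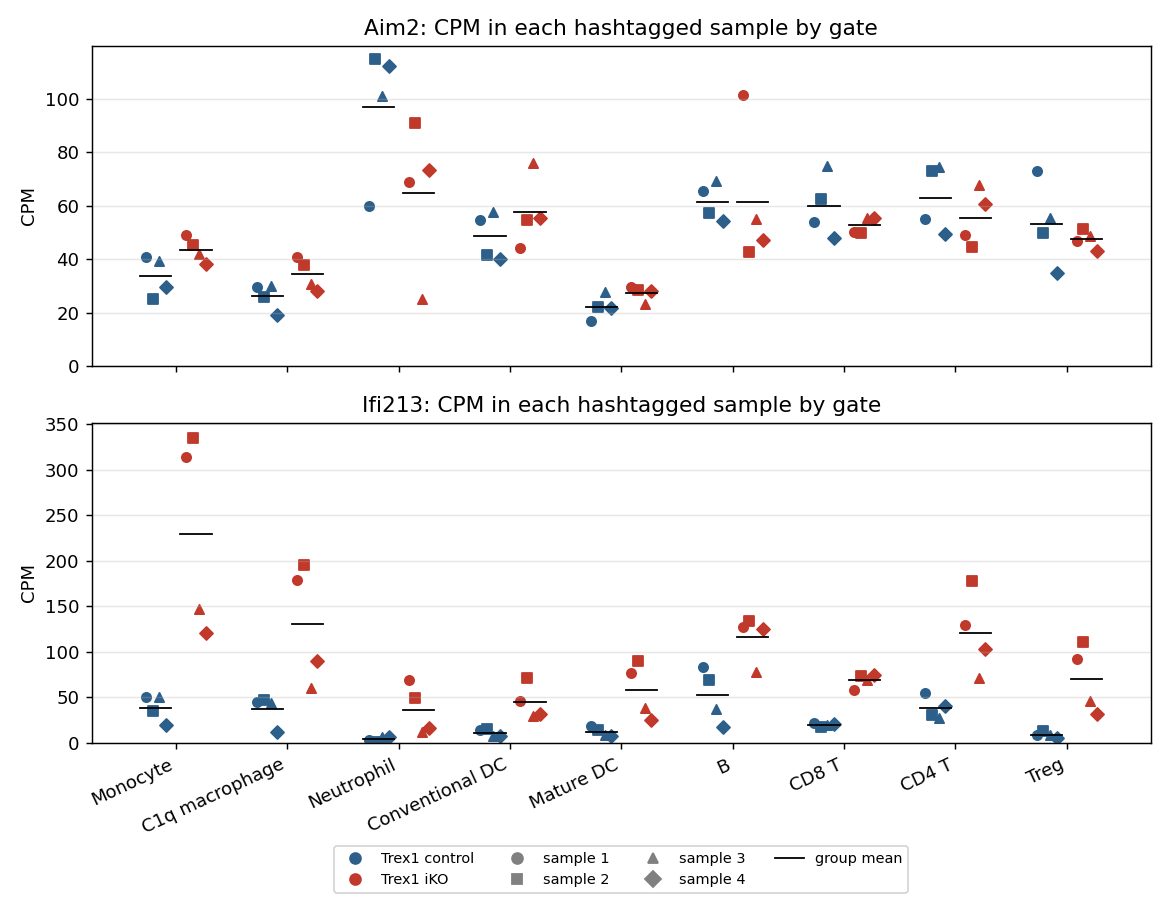
CPM of Aim2 (upper) and Ifi213 (lower) in each hashtagged sample by gate; colour is genotype, marker shape is sample number and bars are group means. The genotypes overlap for Aim2 in each gate, while for Ifi213 they are apart in each gate but B cells. Ifi213 is the member called in the most gates, which favours being apart. The share of all genes that are apart is not given.

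Ifi208 and Ifi214, other PYHIN genes of the locus, were both called higher in the monocyte/macrophage gate. Ifi208 in monocytes was 78.6 ± 47.4 CPM in iKO and 9.41 ± 6.20 in control samples (log2 fold change 3.10 ± 0.56, adjusted p = 0.00566). In the whole monocyte/macrophage gate it rose by 2.72 ± 0.58 and Ifi214 by 1.61 ± 0.34. Ifi202b, which encodes a HIN-only protein that blocks Aim2, was at most 0.321 CPM in any sample of that gate and was not tested. Genes flanking the cluster were taken as neighbours. Of 17 flanking genes listed, 7 were tested in the monocyte/macrophage gate. There edgeR called 0 of them (1 at an unadjusted p under 0.05, beside 30.4% of all genes), with a median log2 fold change of 0.14. In monocytes, of 7 flanking genes tested, 1 was called higher and 1 lower, beside 998 and 784 of 10126 genes.

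Genes of inflammasomes and cell death, a list that also holds sensors other than Aim2, changed in part in the monocyte/macrophage gate. Of 17 genes tested, 6 were called higher and 1 lower, beside 6.7% and 5.59% of all genes in that gate. The count of higher genes fell to 3 without control sample 3, to 1 without iKO sample 1, iKO sample 2 or control sample 4, and to 0 without control sample 2. Casp1, the protease that Aim2 inflammasomes activate, rose from 59.6 ± 9.86 to 117 ± 41.4 CPM (0.97 ± 0.26, adjusted p = 0.0419). Casp4, which senses lipopolysaccharide, rose by 1.14 ± 0.32, and Casp8, a protease of cell death pathways, by 0.49 ± 0.11. Gsdmd, the pore-forming target of Casp1, rose by 0.58 ± 0.16, and Il18, a cytokine Casp1 matures, by 0.86 ± 0.19. Zbp1, a sensor of Z-form nucleic acid, rose by 1.79 ± 0.34. Ninj1, which ruptures the plasma membrane in lytic death, fell by 0.52 (SE 0.12). Pycard, the adaptor of Aim2, did not pass, with 396 ± 23.0 CPM in iKO and 365 ± 16.4 in control samples (adjusted p = 0.387). Il1b and Nlrp3 did not pass either (adjusted p = 0.468 and 0.313).

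In the Sting1 pathway, 3 of 7 genes rose in that gate: Cgas, which makes the messenger that Sting1 binds, by 1.03 ± 0.18, the kinase Ikbke by 0.71 ± 0.12, and Irf7, a transcription factor of interferon genes, by 2.85 ± 0.40. These were set beside 6.7% of all genes there, and 3 were called when any 1 sample was left out, but 1 with iKO samples 3 and 4 alone. Sting1 itself did not pass (0.46 ± 0.27, adjusted p = 0.275). Of 23 interferon-stimulated genes taken as a reference, 21 were called higher there, 23 in monocytes and 23 in CD8 T cells, with medians of 1.78, 2.08 and 1.81. In the monocyte/macrophage gate the count was 11 without control sample 2 and 15 to 22 without any other 1 sample. Isg15, a ubiquitin-like protein, rose by 2.38 ± 0.47 in the monocyte/macrophage gate, and Ifit3, which binds viral RNA, by 2.43 ± 0.61. In monocytes the reference genes summed to 19375, 20122, 12249.8 and 11406 CPM in iKO samples 1 to 4 and to 3079 to 4790.2 CPM in control samples. In monocytes samples 1 and 2 were thus the high iKO pair for these genes as for the members. In CD8 T cells the reference genes summed to 5136, 5334, 3934 and 3742 CPM in iKO samples 1 to 4. The members summed to 1081, 1199, 1053 and 1163 CPM there, and samples 1 and 2 were not the high pair.

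Genes with the most similar pattern were sought over 18 points, the 9 gates in both genotypes, as log2(CPM + 1) means, among 10254 genes. The points share samples, so the correlations are descriptions. Tor3a (Pearson r = 0.93), Daxx (0.90) and Smim40 (0.87) were most like the summed members. The gene most like each member was Tcof1 for Ifi203 (0.92), Ly6i for Ifi204 (0.96), Bex6 for Ifi205 (0.97), Slfn8 for Ifi206 (0.89), Arf2 for Ifi207 (0.97), Copz1 for Ifi211 (0.93), Xrn2 for Mndal (0.92) and AI467606 for Aim2 (0.88). Daxx was nearest to both Ifi209 (0.84) and Ifi213 (0.85). Among the members, Ifi203 and Mndal were the closest pair (0.98). Aim2 had r from -0.56 with Ifi211 to 0.15 with Ifi206.

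The share of cells with at least 1 UMI changed with the levels. Thinned to 3000 UMIs per cell, Ifi204 was found in 82.0% of iKO and 51.7% of control monocytes, and Ifi213 in 41.4% and 8.83%. Without thinning, the Ifi204 shares were 97.3% and 84.6%. In B cells, which had little Ifi204, the thinned shares were 10.1% and 4.96%. Median depth was 12600.5 to 15093 UMIs over the samples' monocytes and 3585 to 4928 over their B cells. Thinned Aim2 shares in monocytes were 12.8% and 9.93%.

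Natural killer cells and plasmacytoid dendritic cells were too few in some samples to test. In natural killer cells with at least 20 cells per sample, Ifi213 read 98.8 and 94.6 CPM in the 2 iKO samples and 30.5 and 27.7 CPM in the 2 control samples. Aim2 read 34.9 and 64.2 CPM against 47.9 and 61.5 CPM. In plasmacytoid dendritic cells the member sum was 1230.1, 1528, 541 and 504 CPM in iKO and 491 CPM in the 1 control sample.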

How the data were processed

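Raw UMI counts were deposited as 1 matrix of genes by barcodes for each hashtagged sample, made by the authors with Cell Ranger 7.1.0 on GRCm39, per the submitters' processing notes. The annotation, intron setting and hashtag rule were not given in the sources used here. Members and lists were chosen with earlier results of these data known. Each cell was gated when 1 lineage panel had at least 2 UMIs and at least 66% of all panel UMIs, and 1815 cells stayed ungated. T cells were split by Cd8a and Cd8b1, Cd4 and Foxp3. Monocytes had at least 5 UMIs per 10000 of a panel of 4 monocyte genes, not all of which are reported here, and C1q macrophages at least 10 of C1qa, C1qb, C1qc and Ms4a7. These thresholds were set after the panel levels, not the members, were seen: 1061 cells lay near the C1q limit, and 2377 monocyte/macrophage cells were in neither class. No doublet caller was run, and cells with mixed panels stayed ungated. Gates with at least 20 cells in all 8 samples were tested on summed counts with edgeR 4.0.16 in R 4.3.3 (TMM, filterByExpr, quasi-likelihood, Benjamini-Hochberg over all genes). Simulated 4-fold changes were recovered for 88.5% of 200 genes in the whole-sample profile (13534 genes), 97% in the monocyte/macrophage gate (11789), 97.5% in CD8 T cells (9596) and 99% in B cells (3166), with false shares of 7.81%, 3%, 5.34% and 5.71%. Samples of 1 group differed by more than counting error (chi-square over degrees of freedom 8.17 or more). Same-numbered samples were checked for pairing, by whether every pair of deviations correlated above 0.1. This held in the whole-sample profile (correlations 0.15 to 0.53) and in no gate (lowest pair in CD8 T cells 0.063). The main whole-sample fit was nevertheless unpaired, and the replicate block was run as an alternative. Alternatives were DESeq2 1.42.0, RLE factors, no filter on low counts, stricter gates, a 5% mitochondrial limit, a limit at 3 times the sample's median UMIs, a replicate block, each sample left out and, chosen after seeing the data, iKO samples 3 and 4 alone. Levels of all 10 members were computed in every gate, and the text gives values for only some of them in most gates. Of the other lists, counts called and the called inflammasome and PYHIN genes were named.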

Additional observations from a re-analysis of the deposited data

Results flagged for a closer look

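In 14 of the 220 groups of 4 samples examined, 1 sample lay far from the other 3, where chance flags about 1 in 20. In control sample 4, Ifi206 was low in all kept cells (14.6 CPM, others 31.8 to 35.3) and in the monocyte/macrophage gate (13.0, others 36.4 to 40.3). Ifi213 was low in the same sample in the monocyte/macrophage gate (15.1, others 47.1 to 48.1) and in C1q macrophages (12.3, others 43.9 to 47.2). In control sample 1, Ifi205 was high in monocytes (97.5 CPM, others 59.0 to 63.6), Ifi209 in mature dendritic cells (187, others 113 to 119), Ifi207 in CD4 T cells (18.3, others 6.97 to 8.71) and Ifi206 in regulatory T cells (77.3, others 12.4 to 17.0). In control sample 3, Ifi205 was high in regulatory T cells (17.0 CPM, others 0 to 2.27). In iKO sample 2, Ifi205 (60.9 CPM, others 4.10 to 11.04) and Ifi209 (331, others 156 to 168) were high in CD4 T cells. In B cells, iKO sample 1 was low for Ifi206 (90.1 CPM, others 118 to 119.5) and high for Ifi207 (63.8, others 9.17 to 16.0), and iKO sample 3 was low for Ifi213 (77.9, others 125 to 134).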

How the results depend on the processing

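Over single members and gates, 1491 alternative values kept their direction and side of the threshold, 133 lost a call, 84 gained one and 18 changed sign, all 18 where the main value was not called. Leaving out 1 sample gave 4 to 8 members called in all cells, 5 to 8 in CD8 T, 4 to 7 in CD4 T, 1 to 7 in regulatory T, 1 to 4 in B cells, 4 to 6 in neutrophils, 0 to 9 in the monocyte/macrophage gate, 8 to 9 in monocytes, 0 to 6 in C1q macrophages, 0 to 4 in conventional and 0 to 4 in mature dendritic cells, and 0 to 1 for the difference of effects. With iKO samples 3 and 4 alone the counts were 3 in all cells, 2 in CD4 T cells and 0 in regulatory T, B, monocyte/macrophage and conventional dendritic cell gates. Those fits called 71 of 13778 genes higher in all cells, 36 of 7009 in CD4 T and 2 of 7643 in regulatory T cells. They called 32 of 3652 in B, 105 of 11539 in monocyte/macrophage and 12 of 8015 in conventional dendritic cells. Without a filter on low counts the member counts were 7 in regulatory T cells, 8 in neutrophils, 5 in C1q macrophages, 7 in conventional and 7 in mature dendritic cells, and 1 for the difference. With a limit on UMIs they were 4 in CD8 T cells, 5 in regulatory T cells, 0 in conventional and 2 in mature dendritic cells. In conventional dendritic cells that limit left 0 of 6349 genes called higher. DESeq2 gave 7 in C1q macrophages and 2 in mature dendritic cells, and stricter gates 1 in mature dendritic cells. With the replicate block the counts were 9 in all cells, 2 in C1q macrophages and 6 in mature dendritic cells. The block moved no other count by more than 1.5 times, and only in all cells did every pair of equal numbers correlate above 0.1. The cause of these moves was not tested. The difference of effects was not refitted with DESeq2, the UMI and mitochondrial limits, the block or iKO samples 3 and 4 alone.

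Values that changed sign were those of Aim2 in all cells (0.032 without a filter, and -0.092 to 0.054 when 1 sample was left out) and in B cells (-0.37 to 0.13), of Ifi207 in regulatory T cells (-0.094 to 0.60), and, in the difference of effects, of Ifi207 (-0.32 to 0.042), Ifi209 (-0.045 to 0.41) and Ifi213 (-0.028 to 0.56), each over the fits without 1 sample. With iKO samples 3 and 4 alone, Ifi211 turned to -0.15 in CD8 T cells, Ifi207 to -0.27 in neutrophils, and Ifi203 to -0.0899 and Ifi205 to -0.59 in mature dendritic cells. The iKO neutrophil, B and dendritic cell gates held 27 to 137 cells per sample.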
